A study of Mus musculus with 30 samples.

Results

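Microglia and astrocytes sorted from the same disease model, experimental autoimmune encephalomyelitis (EAE), were compared gene by gene to find where the disease changed both cell types in the same direction, where it changed only 1 of them, and where it changed them in opposite directions. The genes compared were those with a mean level of at least 1 on the deposited log2 FPKM scale in both cell types, taken over the 10 naive and EAE-vehicle libraries of each. This left 8509 of 30952 genes, of which 8202 were protein-coding. Mtcp1 and Nbeal2 lay just inside the limit, with astrocyte means of 1.0004 and 1.0005, and Chtf8 and Myo1g lay just outside it at 0.9998 and 0.9995. The limit is a mean over both groups, so a gene near the floor in one group passed only through the group where it was high, as with Gbp2, Gbp6, Serping1 and Psmb8 in astrocytes, and 1514 of the 8509 genes had a group mean under 1. Counts over the 8509 genes are therefore descriptions, and the changes were tested gene by gene over all genes. Among genes with signal in at least 2 of the 4 naive and 3 of the 6 EAE-vehicle libraries of each cell type, a limit added after the data were seen, 232 rose in both, 84 were opposed and 106 had a difference between the cell types, against 312, 117 and 145 of the 8509.

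The mice were female C57BL/6 animals (C57BL/6J in the study's methods), 8 to 10 weeks old when immunized with the myelin peptide MOG35-55. Treated mice received 20% Captisol vehicle, or the RIPK1 kinase inhibitor RIPK1inh-1 at 50 mg/kg, for 3 days from a clinical score of about 1. Spinal cord astrocytes (GLAST+CD11b-CD45-CD140a-) and microglia (CD11b+CD45intCX3CR1+) were sorted and their polyadenylated RNA was sequenced after cDNA amplification. For each cell type there were 4 libraries from naive mice, 6 from EAE-vehicle mice and 5 from EAE-RIPK1inh-1 mice. The microglial and the astrocytic change each came from separate libraries. The study's legends describe microglia and astrocytes as taken from the spinal cords of the same EAE mice. The labels do not say which libraries of the 2 cell types share a mouse, or whether those with the same number do.

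EAE is driven by myelin-reactive T cells that enter the spinal cord and release interferon-gamma and other cytokines. Interferons act through JAK kinases and STAT factors to switch on guanylate-binding proteins, immunity-related GTPases, antigen presentation and the immunoproteasome. Microglia are the resident macrophages of the cord and lose their homeostatic genes, such as P2ry12 and Tmem119, as they become activated, whereas astrocytes support synapses, take up glutamate and export cholesterol and apolipoprotein E.

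The labelled cell types carried their defining genes, and the astrocyte libraries also carried markers of other cells. The mean of 8 astrocyte markers was 6.18 to 9.16 in astrocyte libraries and 0.95 to 1.86 in microglial ones, and the mean of 10 microglial markers was 9.12 to 12.01 in microglial libraries and 1.06 to 4.46 in astrocytic ones. Within the astrocyte libraries the astrocyte markers were lower in disease, at 8.00 to 9.16 (median 9.08) in naive and 6.18 to 8.03 (median 7.15) in EAE-vehicle mice. The mean of 7 oligodendrocyte markers was 5.58 to 7.39 (median 6.85) and 6.47 to 9.75 (median 8.77). In every EAE-vehicle astrocyte library the oligodendrocyte marker mean was above the astrocyte marker mean. The part of these shifts in the astrocytic falls described later was not tested. Neuron markers averaged 4.30 to 5.41 in naive and 5.26 to 6.07 in EAE-vehicle astrocyte libraries. Erythrocyte markers averaged 3.88 to 8.67 and 0.08 to 7.40 in the same groups. Signal was present for 8710 to 20398 genes in microglial libraries and for 6728 to 22980 genes in astrocytic ones. EAE-vehicle astrocyte library 1 stood apart with the fewest genes, and its genes without signal held values up to 2.74, so differences that start or end at such low levels depend on the floor of the scale. A library's median correlation with the rest of its group lay between 0.69 and 0.911 for microglia and between 0.525 and 0.763 for astrocytes. The read depth is unknown, and 4818 of the 8509 genes were marked in the deposited table as confounded with another gene, as were 12 of the 16 interferon-inducible GTPases described next. Gbp2, Cd74, Psmb8, Vcam1, Pla2g7, Junb, Jun, P2ry12, Gpr34 and Lcp1 carry that mark, and their values are uncertain where reads of overlapping or similar genes could have been split.

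A gene was called changed, and is said to have risen or fallen, when EAE-vehicle differed from naive by more than 1.5-fold at an unadjusted p under 0.05 in the limma fit of that cell type, which is the cutoff of the study. Adjusted p-values are Benjamini-Hochberg values over all genes tested, and errors after ± are standard errors of a difference of log2 levels. In microglia 1365 of the 8509 genes rose and 1075 fell, against 6.13% and 5.86% of all 28958 genes tested. In astrocytes 664 rose and 675 fell, against 2.69% and 4.01% of all 30718 genes tested. At an adjusted p under 0.05 the counts were 878 in microglia and 137 in astrocytes, where 3.92% and 0.579% of all genes tested passed. The median standard error was 0.48 in microglia and 0.87 in astrocytes, and a call in microglia without a call in astrocytes was not taken as a difference. The difference was tested as an interaction, the microglial change minus the astrocytic change, which passed an adjusted p under 0.05 for 145 of the 8509 genes and for 0.851% of all 30786 genes tested. At an unadjusted p under 0.05 there were 1329 of the 8509 and 8.40% of all genes tested. With same-numbered libraries of the 2 cell types blocked as 1 mouse, 53 of the 8509 passed an adjusted p under 0.05. The named genes whose interaction did not pass under that block are given near the end. Unlike the fits of the changes, the interaction fit leaves out the inhibitor libraries and pools the spread of both cell types. The standard error of an interaction is therefore not comparable with those of its 2 changes and can be smaller. The interaction fit also treats all its libraries as independent, so its p-values do not allow for mice shared by the cell types.

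Of the 574 genes called in both cell types, 312 rose in both, 145 fell in both and 117 changed in opposite directions. Among the 1365 genes that rose in microglia, 22.9% rose in astrocytes, against 7.8% of all 8509 genes, and 3.44% fell in astrocytes, against 7.93%. Among the 1075 that fell in microglia, 13.5% fell in astrocytes, against 7.93%, and 6.51% rose, against 7.8%. Shared changes were above the background share in both directions and opposed changes were below it, given as a description for the reason above, and the number of opposed genes is not in itself a result. The interaction is the test that bears on them, and 60 of the 117 passed it. It also passed for 16 of the 457 shared genes. A further 38 genes were called in microglia alone with an interaction and 31 in astrocytes alone with one, while 2562 genes called in 1 cell type had none. Across the 8509 genes the 2 changes had a Pearson r of 0.275 and a Spearman rho of 0.193, given as a description, since genes of a library are not independent.

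**Figure D1:**
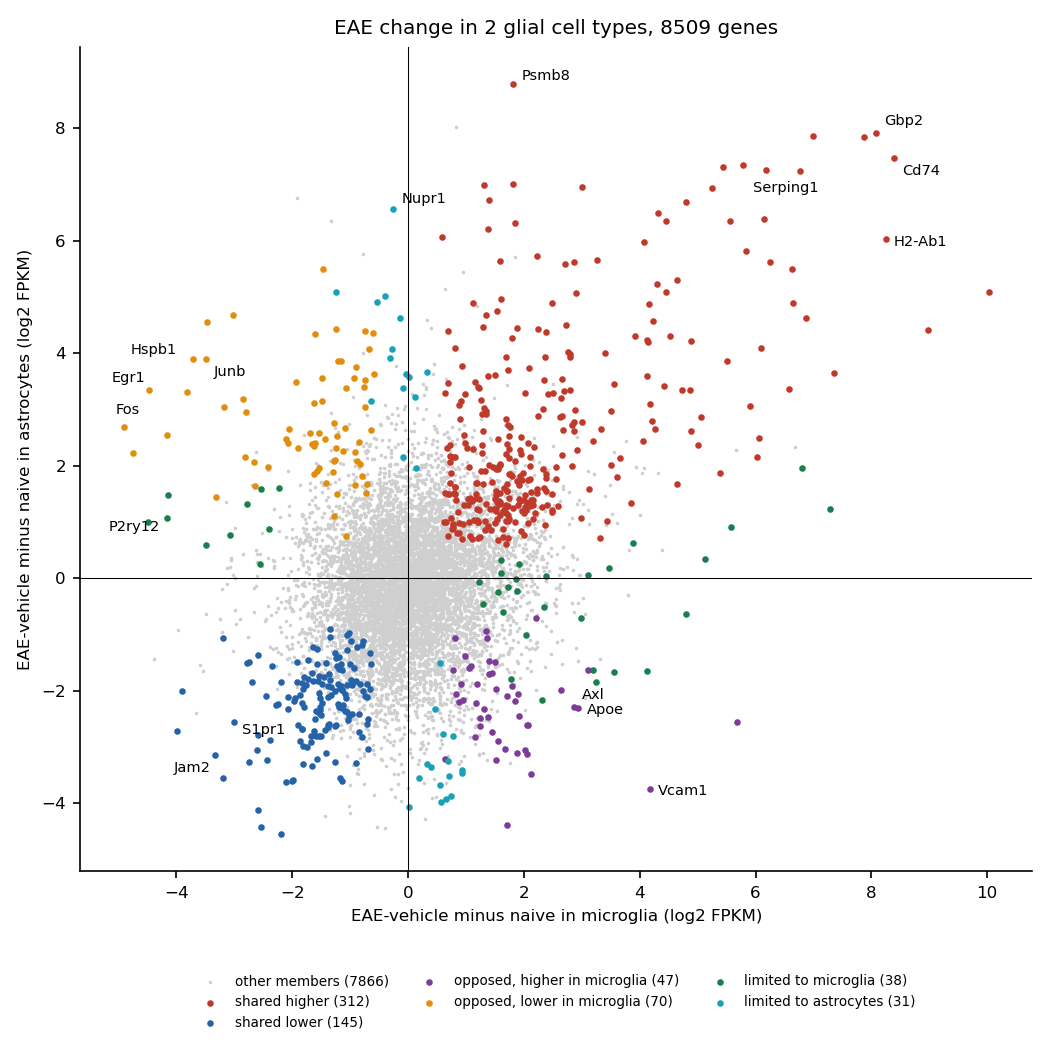
Each point is 1 of the 8509 genes, with the EAE-vehicle minus naive difference of mean log2 FPKM in microglia on the horizontal axis (4 and 6 libraries) and in astrocytes on the vertical axis (4 and 6 libraries); colours mark the classes and grey the genes in none. The genes that rose in both cell types run to the upper right, with Gbp2 at 8.07 and 7.91, while Apoe, Axl and Vcam1 lie at the lower right and Fos, Egr1 and Junb at the upper left.

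The genes that rose most in both cell types were mainly interferon-inducible GTPases and genes of antigen presentation, with the complement inhibitor Serping1 also among them. Gbp2 (chr3:142620602-142638008, GRCm38), a guanylate-binding protein of cell-autonomous defence, read 2.59, 2.54, 0.71 and 0.12 in the 4 naive microglial libraries and 9.26 to 10.06 (median 9.51) in the 6 EAE-vehicle ones. In astrocytes it read 0.92, 0.12, 0.54 and 0.09 when naive and 7.20 to 9.09 (median 8.45) in EAE-vehicle mice. Neither cell type's groups overlapped, and the changes were 8.07 ± 0.44 (adjusted p = 5.7e-08) in microglia and 7.91 ± 0.43 (adjusted p = 1.03e-07) in astrocytes, with an interaction of 0.16 ± 0.66 (adjusted p = 0.938). Iigp1, an immunity-related GTPase, changed by 7.86 ± 0.35 in microglia and 7.85 ± 0.44 in astrocytes. Gbp6, Tgtp2 and Gm4951 changed by 7.00, 6.77 and 6.14 in microglia and by 7.86, 7.24 and 6.39 in astrocytes. The naive groups of these genes were at or near the floor in both cell types, so the size of the differences depends on that floor.

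List counts here and below cover only listed genes that passed the level limit. It kept 16 of 17 interferon-inducible GTPases, 10 of 12 homeostatic, 7 of 12 class II and 10 of 15 complement genes. Of chemokines it kept 9 of 19, of immediate early genes 10 of 20 and of reactive astrocyte genes 8 of 17. Over all 8509 genes, 16% rose and 12.6% fell in microglia, and 7.8% rose and 7.93% fell in astrocytes. As a group, 16 of 16 interferon-inducible GTPases rose in microglia and 15 in astrocytes, with median changes of 4.88 and 6.98, where the medians over all 8509 genes were 0.01 and -0.08. Among 23 type I interferon-stimulated genes, 21 rose in microglia, 20 in astrocytes and 19 in both, with medians of 2.17 and 3.60. Isg15, a ubiquitin-like protein that is conjugated to other proteins during antiviral responses, read 2.41, 3.87, 1.16 and 0.16 in naive and 5.62 to 6.38 (median 6.02) in EAE-vehicle microglia. In astrocytes it read 0.09, 0.16, 0.09 and 0.12 in naive and 5.19 to 6.81 (median 6.07) in EAE-vehicle libraries, and both sets of groups were apart. Ifi27l2a and Ifitm3, the latter a block to viral entry, changed by 4.81 and 4.65 in microglia and by 6.68 and 5.30 in astrocytes.

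The signalling genes upstream moved less uniformly. Irf7, which amplifies interferon production, changed by 2.90 ± 0.46 (adjusted p = 0.00164) in microglia and 5.07 ± 1.07 (adjusted p = 0.0479) in astrocytes. Irf1 changed by 2.38 ± 0.62 (adjusted p = 0.0454) and 4.38 ± 0.87 (adjusted p = 0.0368). Of 13 STAT and IRF genes, 4 rose in microglia and 6 in astrocytes. Irf8, a factor that macrophages need, fell slightly in microglia (-0.76 ± 0.33) and rose in astrocytes (3.40 ± 0.75), with an interaction of -4.16 ± 0.63 (adjusted p = 0.00192). It was 1 of 2 members called lower in microglia, and 0 were called lower, and 0 opposed, when both EAE-vehicle libraries numbered 1 were left out. Microglial markers were also higher in EAE-vehicle than in naive astrocyte libraries, and their part in the astrocytic rise of Irf8 was not tested. Of 10 genes for interferon receptors, JAK kinases and their inhibitors, 1 (Socs2) rose and 4 fell in microglia, including the receptor chain Ifngr1 (-2.0 ± 0.32). In astrocytes their changes ranged from -1.38 to 0.79 and no member was called.

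The promoters of the interferon-responsive genes are shown because these genes moved together in both cell types. Stretches of 250 bases before to 50 after the start site were taken from RefSeq (GRCm38.p6), and a promoter was found for 6759 of the 8509 genes. The core of the interferon-stimulated response element, GAAANNGAAA on either strand, was present in 3.99% of all 27025 genes with a promoter and in 4.02% of the 6759. It was present in 9 of 10 interferon-inducible GTPases (90%), in 11 of 19 type I interferon-stimulated genes (57.9%), in 41 of 240 genes that rose in both cell types (17.1%) and in 25 of 216 of these outside the interferon lists (11.6%). Among genes that fell in both it was present in 4 of 116 (3.45%). The gamma-activated site TTCNNNGAA, to which activated STAT dimers bind, was present in 6 of the 10 GTPases, against 8.26% of the 6759 genes and 9.55% of all. The matches are letters in these windows and were not shown to be bound. The 180 bases before the start of 5 genes follow, 5′ to 3′ on the strand of the gene, with matches to the ISRE core or the gamma-activated site in capitals.
Tgtp2, chr11:49064213-49064392, minus strand: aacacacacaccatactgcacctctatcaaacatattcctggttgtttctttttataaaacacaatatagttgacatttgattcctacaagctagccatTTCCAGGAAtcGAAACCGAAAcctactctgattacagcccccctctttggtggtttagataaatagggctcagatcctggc
Igtp, chr11:58199376-58199555, plus strand: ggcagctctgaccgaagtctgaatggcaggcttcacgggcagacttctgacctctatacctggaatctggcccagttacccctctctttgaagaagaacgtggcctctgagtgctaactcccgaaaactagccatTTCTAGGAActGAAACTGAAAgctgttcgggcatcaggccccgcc
Irgm2, chr11:58214797-58214976, plus strand: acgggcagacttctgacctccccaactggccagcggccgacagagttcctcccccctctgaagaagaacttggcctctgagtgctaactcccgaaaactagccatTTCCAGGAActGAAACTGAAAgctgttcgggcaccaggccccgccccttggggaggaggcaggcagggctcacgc
Isg15, chr4:156200819-156200998, minus strand: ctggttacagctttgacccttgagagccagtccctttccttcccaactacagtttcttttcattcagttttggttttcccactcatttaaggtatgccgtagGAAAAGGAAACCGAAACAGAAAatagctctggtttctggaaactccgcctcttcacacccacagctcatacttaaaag
Irf1, chr11:53769834-53770013, plus strand: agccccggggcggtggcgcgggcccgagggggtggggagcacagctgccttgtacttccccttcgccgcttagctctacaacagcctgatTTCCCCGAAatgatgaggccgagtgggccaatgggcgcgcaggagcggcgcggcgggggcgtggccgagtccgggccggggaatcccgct
In Tgtp2, Igtp and Irgm2 a gamma-activated site is followed by an ISRE core, whose first bases lie at -70, -34 and -64 from the start. Isg15 holds 3 overlapping ISRE matches beginning at -78, and Irf1 holds a gamma-activated site at -90 alone.

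Genes of MHC class II, which presents peptides to helper T cells, rose in both cell types. Cd74, the invariant chain, read 6.77, 7.55, 6.95 and 6.52 in naive microglia and 15.34 in each of the 6 EAE-vehicle libraries, which is the highest value the scale holds, so its change of 8.39 ± 0.25 there is limited by the scale. In astrocytes it read 0.00, 3.19, 0.00 and 0.01 when naive and 7.05 to 9.83 (median 8.10) in EAE-vehicle mice, a change of 7.47 ± 0.73 (adjusted p = 7.44e-05). Of 7 class II genes, 6 rose in microglia and 7 in astrocytes, with medians of 8.25 and 4.41. H2-Ab1, the beta chain of I-A, changed by 8.25 and 6.03 (interaction adjusted p = 0.192, passing in 2 of 28 alternative settings). H2-Aa, its alpha chain, changed by 10.03 and 5.10, and its interaction passed at 0.00963. Ctss, the cathepsin that trims the invariant chain, rose in astrocytes (3.57 ± 0.61) and was 0.02 ± 0.23 in microglia, with an interaction adjusted p of 0.0159. Microglia also express these genes, and the mean of the 10 microglial markers was 1.06 to 2.65 in naive and 2.71 to 4.46 in EAE-vehicle astrocyte libraries, whose part in the astrocytic rises was not tested.

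Several genes of the class I pathway changed more in astrocytes than in microglia. Psmb8 (chr17:34197721-34201454), a catalytic subunit of the immunoproteasome, read 7.83, 7.68, 7.40 and 8.02 in naive microglia and 9.31 to 9.80 (median 9.55) in EAE-vehicle microglia, whereas astrocytes went from 0.25, 0.01, 0.00 and 0.00 to 8.08 to 9.60 (median 8.86). The EAE-vehicle values of the 2 cell types overlapped. The changes were 1.81 ± 0.14 (adjusted p = 2.7e-06) and 8.78 ± 0.37 (adjusted p = 8.89e-09), and the interaction of -6.96 ± 0.36 had an adjusted p of 1.32e-09. Psmb9, the neighbouring subunit, changed by 1.84 and 6.31 (interaction adjusted p = 0.000386). The class I molecule H2-T23 changed by 1.39 and 6.72 (0.000106), and B2m, the light chain of all class I molecules, by 1.27 and 2.92 (0.00104). Among the interferon genes, Irgm2 (1.31 and 6.99), Igtp (1.82 and 7.02), Gbp10 (3.00 and 6.96) and Bst2 (1.39 and 6.20) also passed with the larger change in astrocytes. The class I genes H2-Q7 and H2-T22 changed by 5.50 and 5.01 in microglia and by 3.87 and 2.37 in astrocytes, with no interaction (0.632 and 0.545). Genes named for a passed interaction in this and later paragraphs were chosen after their values were seen. By counts, 5 of 5 immunoproteasome genes rose in both cell types, and of 18 class I and peptide-loading genes 13 rose in microglia, 11 in astrocytes and 10 in both. The 2 that fell in astrocytes were Pdia3 and Canx, chaperones of the endoplasmic reticulum, and 0 fell there without EAE-vehicle astrocyte library 1 and 1 with each library centred on its median. Of 14 constitutive proteasome genes 10 rose in microglia and 4 in astrocytes, with medians of 0.76 and 0.57.

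**Figure D2:**
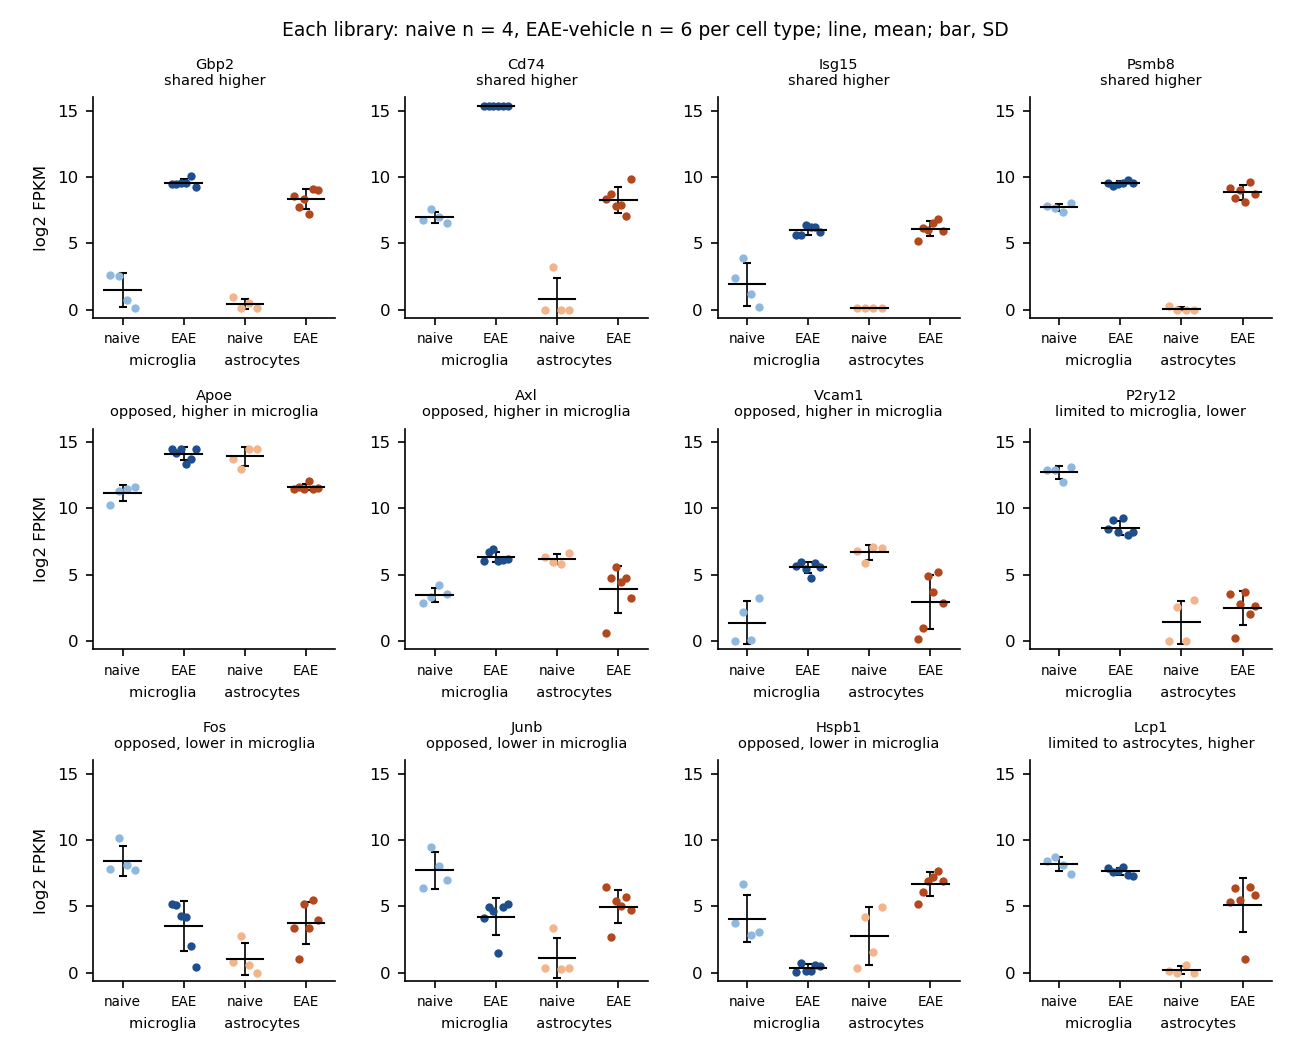
Points are the log2 FPKM of 12 genes in each of the 4 naive and 6 EAE-vehicle libraries of microglia (blue) and astrocytes (orange), with a line at the mean and a bar of 1 SD. Gbp2 rises from near 0 in both cell types, Psmb8 starts at 7.40 to 8.02 in naive microglia and at 0.00 to 0.25 in naive astrocytes, and Apoe moves up in microglia and down in astrocytes.

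Of the secreted mediators, 3 of 10 complement genes and 5 of 9 chemokines rose in both cell types. Serping1, the inhibitor of the first complement component, changed by 6.18 ± 0.46 (adjusted p = 1.83e-06) in microglia and 7.27 ± 0.94 (adjusted p = 0.00117) in astrocytes, and C4b by 6.63 and 5.50. Of the complement genes, 4 rose and 3 fell in microglia and 7 rose in astrocytes. Among the chemokines, 7 rose and 2 fell in microglia and 6 rose in astrocytes. Cxcl10, an interferon-induced attractant of T cells, changed by 5.55 ± 0.62 and 6.35 ± 0.74, and Ccl5 by 6.65 ± 0.58 and 4.89 ± 1.16. Ccl7 changed by 5.90 ± 0.87 and 3.06 ± 1.22. Ccl3 was the opposed member, falling by 1.62 in microglia and changing by 2.35 in astrocytes, but its interaction did not pass (adjusted p = 0.144), as for every one of the 9 chemokines.

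Of 8 genes used to describe reactive astrocytes, 7 rose in astrocytes and 5 in microglia, with medians of 3.19 and 1.82. Lcn2, a secreted iron-siderophore carrier, read 0.00, 2.44, 0.01 and 0.03 in naive astrocytes and 7.60 to 9.43 (median 8.84) in EAE-vehicle astrocytes, a change of 8.03 ± 0.72 (adjusted p = 3.19e-05). Its microglial libraries overlapped, with a change of 0.83 ± 1.71 (adjusted p = 0.883), and the interaction did not pass (adjusted p = 0.0558). The intermediate filament gene Vim changed by 2.80 in microglia and 4.00 in astrocytes. Zbp1 and Mlkl, a sensor and the executor of necroptosis, were the 2 of 12 genes around RIPK1 that rose in both, Zbp1 by 6.25 and 5.63 and Mlkl by 3.50 and 2.01. Of 10 NF-kB subunits and inhibitors, 1 rose in microglia (Bcl3, 2.21) and 2 in astrocytes, against 16% and 7.8% of all 8509 genes. Tnfaip3, a ubiquitin-editing brake on NF-kB, was 0.12 ± 0.33 in microglia and 3.22 ± 0.80 in astrocytes, with an interaction adjusted p of 0.0128.

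Ribosomal protein genes rose in both cell types, and respiratory chain genes rose in microglia. Of 81 cytosolic ribosomal protein genes, 77 rose and 1 (Rpl10) fell in microglia, and 55 rose in astrocytes, all of them among the microglial ones. The medians were 1.70 and 1.07. Rpl36a changed by 2.59 ± 0.32 and 1.29 ± 0.41, and Rps23 by 2.48 ± 0.36 and 1.5 ± 0.48. In contrast, 49 of 76 nuclear genes of the respiratory chain and ATP synthase rose in microglia, with a median of 1.10, while 1 rose and 2 fell in astrocytes, with a median of 0.13. The interaction passed for 3 of them, the complex I or IV subunits Ndufa2 (1.73 and -0.16), Ndufa13 (1.55 and -0.24) and Ndufa4 (1.23 and -0.07), and for 7 without EAE-vehicle astrocyte library 1, 2 without both EAE-vehicle libraries numbered 1 and 1 with each library centred on its median. Atp5g3 and Uqcrq, those with the largest changes, differed from naive by 2.44 and 2.27 in microglia and 0.13 and 0.58 in astrocytes, with interaction adjusted p-values of 0.412 and 0.225. Of 17 glycolytic genes, 10 rose in microglia and 3 fell in astrocytes. Pfkp, a subunit of the committing kinase, changed by 2.99 ± 0.48 and -0.70 ± 0.38 (interaction adjusted p = 0.00541), and Pgk1 by 1.88 ± 0.30 and -0.22 ± 0.30 (0.0159), and these were the 2 that passed, with 4 passing without that astrocyte library or without both. Slc2a1, the glucose transporter, fell in astrocytes (-3.90 ± 0.95) and was 0.41 ± 0.41 in microglia (0.0683).

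Part of the sterol synthesis genes fell in astrocytes. Of 20 genes, 7 fell there and 1 in microglia (Msmo1, in both), and the medians were -1.46 and 0.04, with -0.94 in astrocytes when EAE-vehicle library 1 was left out. Over the 8509 genes, 7.93% fell in astrocytes and 12.6% in microglia. Dhcr7, the last reductase of cholesterol synthesis, read 5.48, 3.39, 6.41 and 6.20 in naive and 0.52 to 2.39 (median 1.72) in EAE-vehicle astrocytes, a change of -3.75 ± 0.91, against -0.29 ± 0.65 in microglia. Mvd, an enzyme of the mevalonate pathway, changed by -3.73 ± 0.99 in astrocytes and was 0.00 ± 0.84 in microglia. Their interaction adjusted p-values were 0.13 and 0.3, so a difference between the cell types was not shown for either. The lower astrocyte and higher oligodendrocyte marker means of EAE-vehicle astrocyte libraries stand beside these falls, and their part was not tested.

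**Figure D3:**
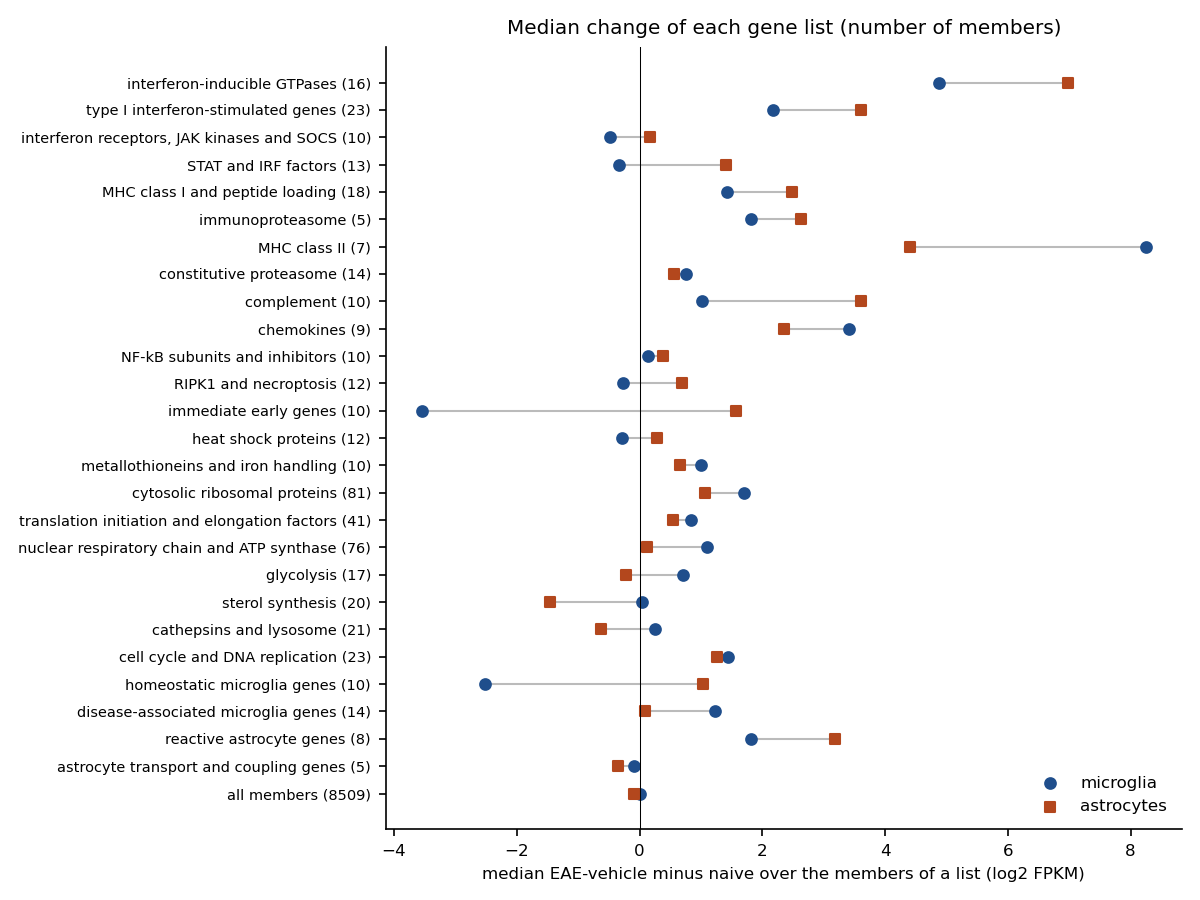
Each row is a gene list with its number of genes, and the points give the median EAE-vehicle minus naive difference (log2 FPKM) of its genes in microglia (circles) and astrocytes (squares). Interferon lists lie to the right in both, respiratory chain genes lie at 1.10 and 0.13, and immediate early genes lie on opposite sides of 0 at -3.55 and 1.57.

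The 145 genes that fell in both cell types formed a less sharply defined group, with median changes of -1.48 in microglia and -2.11 in astrocytes, and 9 had an adjusted p under 0.05 in both. S1pr1, a sphingosine-1-phosphate receptor and target of the multiple sclerosis drug fingolimod, was the one of the 8 named genes that did so. It read 4.37, 4.36, 3.53 and 3.02 in naive microglia against 0.05 to 2.43 (median 0.61) in EAE-vehicle microglia, and 8.98, 8.43, 9.37 and 9.07 against 5.67 to 6.87 (median 6.47) in astrocytes. The changes were -3.01 ± 0.61 (adjusted p = 0.0104) and -2.55 ± 0.40 (adjusted p = 0.00683), and neither cell type's groups overlapped. Jam2 (chr16:84774123-84825928), a junctional adhesion molecule, changed by -3.33 ± 0.62 (adjusted p = 0.00563) and -3.14 ± 0.98 (adjusted p = 0.273). Hnmt, which inactivates histamine, changed by -3.98 ± 0.53 (adjusted p = 0.000425) and -2.72 ± 1.17 (adjusted p = 0.621), and its astrocytic groups overlapped. The adhesion receptor Adgrg1 changed by -2.59 and -4.12, Sncaip, a partner of alpha-synuclein, by -2.60 and -3.04, and the small GTPase Rab34 by -2.59 and -2.78. Gpr155 and Tmc7 changed by -2.74 and -2.55 in microglia and by -3.26 and -4.41 in astrocytes. The astrocytic calls of Hnmt and Rab34 were lost without any 1 of 5 and of 4 of the 10 astrocyte libraries, at unadjusted p-values of up to 0.104 without naive library 2 for Hnmt and 0.0657 without naive library 3 for Rab34. With values under 3 set to 3, the astrocytic change of Sncaip was -0.32 and the microglial change of Rab34 -0.30, and neither was called. Cst3, a secreted cysteine protease inhibitor, was the 1 gene that fell in both with an interaction, by 2.75 in microglia and 1.49 in astrocytes.

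Among the opposed genes, 47 rose in microglia and fell in astrocytes, 21 of them with an interaction. Apoe (chr7:19696109-19699188), the main lipid carrier of the nervous system, read 10.27, 11.32, 11.48 and 11.64 in naive microglia and 13.32 to 14.48 (median 14.34) in EAE-vehicle microglia. In astrocytes, its usual main source, it read 13.71, 13.01, 14.48 and 14.48 when naive and 11.48 to 12.10 (median 11.52) in EAE-vehicle mice. In neither cell type did the naive and EAE-vehicle groups overlap. On the deposited scale the cell with the higher level was the astrocyte in naive and the microglia in EAE-vehicle mice. Apoe was near the top of that scale, where libraries share values such as 14.48, so the sizes of its differences depend on the scale. The changes were 2.94 ± 0.47 (adjusted p = 0.00173) and -2.30 ± 0.36 (adjusted p = 0.00602), and the interaction was 5.24 ± 0.43 (adjusted p = 1.91e-06). Pla2g7, which degrades platelet-activating factor, read 1.92, 0.34, 3.80 and 2.30 in naive and 7.05 to 8.30 (median 7.81) in EAE-vehicle microglia, against 10.38, 10.62, 10.52 and 10.38 and 7.19 to 8.98 (median 7.84) in astrocytes. It changed by 5.68 ± 0.62 (adjusted p = 6.98e-05) and -2.55 ± 0.36 (adjusted p = 0.00301), with an interaction of 8.23 ± 0.69 (adjusted p = 1.91e-06).

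Axl, a receptor kinase for the clearance of dying cells, rose from 2.89, 3.31, 4.20 and 3.53 to 6.03 to 6.95 (median 6.17) in microglia and fell from 6.32, 6.00, 5.82 and 6.64 to 0.59 to 5.56 (median 4.62) in astrocytes. The lowest astrocytic value was that of EAE-vehicle library 1, and without naive astrocyte library 4 the astrocytic change had an unadjusted p of 0.056. Its changes were 2.87 ± 0.44 (adjusted p = 0.00122) and -2.29 ± 0.91 (adjusted p = 0.531), and the interaction adjusted p was 0.00723. Vcam1, the adhesion molecule bound by integrins of T cells, changed by 4.17 ± 0.58 (adjusted p = 0.000606) and -3.74 ± 1.17 (adjusted p = 0.282), with an interaction adjusted p of 0.00185. C1galt1c1, a chaperone of O-glycosylation, changed by 2.12 and -3.49, and Chst1, a sulfotransferase, by 2.07 and -2.60, with interaction adjusted p-values of 0.00328 and 0.00398. With values under 3 set to 3 the astrocytic change of Chst1 was -0.56 and not called. Cd63, a lysosomal tetraspanin, belonged to the same pattern with 1.37 and -1.06 (0.000485). The astrocyte marker mean was lower in EAE-vehicle than in naive astrocytes too (medians of 7.15 and 9.08), and its part in the falls of Apoe and the other opposed genes was not tested.

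The reverse pattern, a fall in microglia with a rise in astrocytes, held for 70 genes, 39 of them with an interaction, and immediate early genes, which cells switch on within minutes of a stimulus, were among them. Of 20 listed immediate early genes, 10 passed the level limit. All 10 of these fell in microglia and 5 rose in astrocytes, with medians of -3.55 and 1.57, and 6 passed the interaction. Over the 8509 genes, 12.6% fell in microglia and 7.8% rose in astrocytes. Fos read 7.81, 10.13, 8.08 and 7.77 in naive and 0.46 to 5.14 (median 4.25) in EAE-vehicle microglia, and 0.83, 2.75, 0.55 and 0.00 and 1.06 to 5.45 (median 3.67) in astrocytes, where the groups overlapped. It changed by -4.91 ± 1.20 (adjusted p = 0.0319) and 2.70 ± 0.84 (adjusted p = 0.273), with an interaction of -7.61 ± 1.34 (adjusted p = 0.00635). Junb read 6.37, 9.51, 8.03 and 6.95 and 1.5 to 5.14 (median 4.77) in microglia and 0.39, 3.33, 0.26 and 0.36 and 2.69 to 6.45 (median 5.18) in astrocytes, changing by -3.50 ± 0.84 (adjusted p = 0.0288) and 3.90 ± 0.79 (adjusted p = 0.0391). The transcription factor Egr1 changed by -4.47 and 3.34, the growth suppressor Btg2 by -3.83 and 3.31, and Zfp36, which destabilizes cytokine messages, by -2.82 and 2.15. Their interaction adjusted p-values were 0.00285, 0.0013 and 0.00772.

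The cyclic AMP response element TGACGTCA, searched on both strands, was present in the promoters of 2 of 8 immediate early genes (25%), against 3.98% of the 6759 genes and 2.03% of all. Among genes that fell in microglia and rose in astrocytes it was present in 1 of 52 (1.92%), so it did not mark this pattern. The 180 bases before the start of Btg2 are given with it in capitals, starting at -166, since Btg2 is an opposed gene that holds it.
Btg2, chr1:134079156-134079335, minus strand: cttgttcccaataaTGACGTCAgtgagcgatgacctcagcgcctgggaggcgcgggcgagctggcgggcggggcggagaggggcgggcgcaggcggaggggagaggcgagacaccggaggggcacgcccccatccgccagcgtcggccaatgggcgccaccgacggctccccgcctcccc

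Hspb1, a small heat shock protein, read 3.75, 6.65, 2.82 and 3.04 in naive microglia and 0.04 to 0.71 (median 0.31) in EAE-vehicle microglia, so it was near the floor in disease, and rose in astrocytes from 0.31, 4.22, 1.56 and 4.94 to 5.17 to 7.68 (median 6.92). The changes were -3.71 ± 0.74 (adjusted p = 0.00859) and 3.91 ± 0.83 (adjusted p = 0.0495) (interaction adjusted p = 0.00192). Hspa1a, an inducible chaperone, changed by -4.16 and 2.54, but its interaction adjusted p was 0.056. Of 12 heat shock genes 2 fell in microglia and 3 rose in astrocytes, against 12.6% and 7.8% of all 8509 genes. In the other direction, 1 rose in microglia and 1 fell in astrocytes. Sgk1, a kinase induced by serum and glucocorticoids, changed by -3.17 ± 0.45 and 3.04 ± 0.92, and Gimap6, a GTPase of lymphocytes, by -3.47 ± 0.66 and 4.55 ± 1.18, with interaction adjusted p-values of 0.000828 and 0.000254. Gimap6 had its lowest EAE-vehicle astrocyte value, 3.42, in library 4, which was also lowest for T cell markers (mean of 1.44). It read 6.91 in EAE-vehicle astrocyte library 1, where the T cell marker mean was 2.68. The part of T cell RNA in its astrocytic rise was not tested.

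Homeostatic microglial genes fell in microglia. All 10 that passed the level limit fell in microglia, with a median of -2.51, and 2, Selplg and Cx3cr1, rose in astrocytes. Selplg, the P-selectin ligand, changed by -3.02 ± 0.23 and 4.69 ± 1.04 and Cx3cr1, the fractalkine receptor, by -2.65 ± 0.72 and 1.64 ± 0.62, with interaction adjusted p-values of 0.000316 and 0.0116. The microglial complement genes C1qb and C1qc were likewise opposed, at -0.61 and -0.68 in microglia and 4.37 and 4.07 in astrocytes (0.00842 and 0.000451), and without both EAE-vehicle libraries numbered 1 only 1 complement gene was opposed. Beside these stands the level of microglial markers in astrocyte libraries, whose mean over 10 genes was 1.06 to 2.65 in the 4 naive libraries and 2.71 to 4.46 in the 6 EAE-vehicle ones, with no overlap. The part of microglial RNA in these rises was not tested. In microglia the same marker mean went from 11.36 to 12.01 down to 9.12 to 9.57, and in such bulk samples fewer cells of a type and less RNA per cell cannot be told apart.

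**Figure D4:**
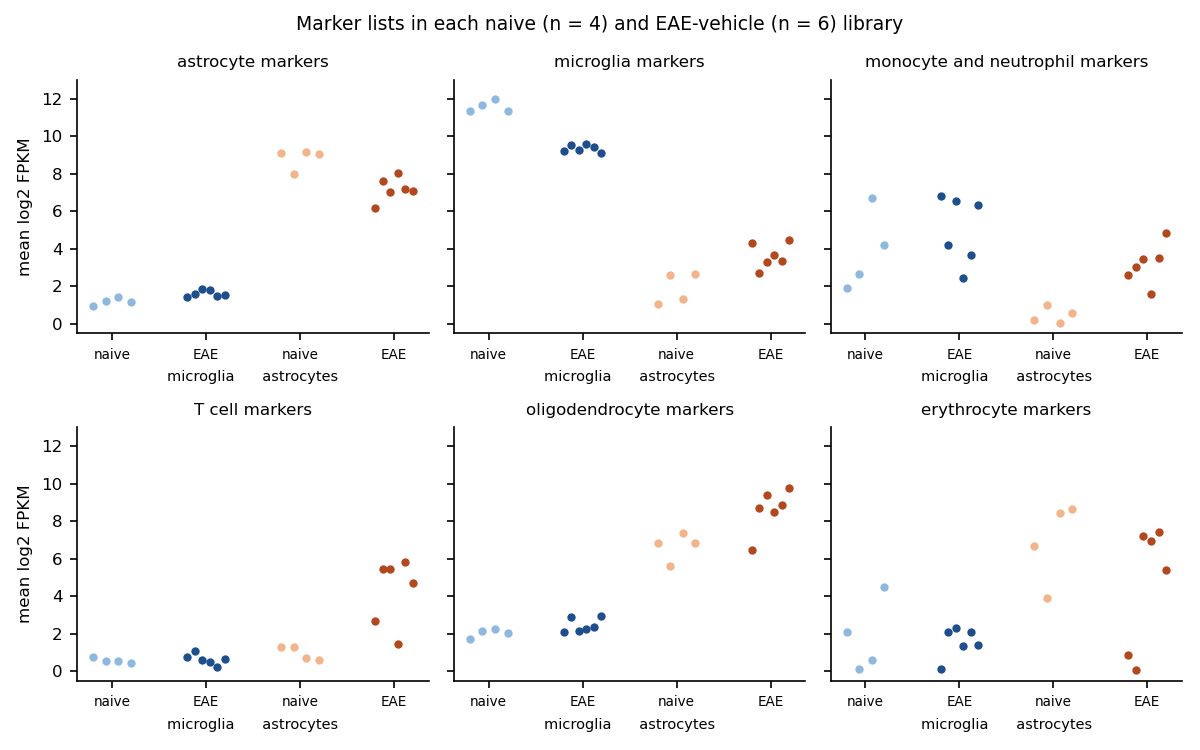
Each point is the mean log2 FPKM of a marker list in 1 library, for the 4 naive and 6 EAE-vehicle libraries of microglia (blue) and astrocytes (orange). T cell markers reach 5.82 in EAE-vehicle astrocytes and stay at or under 1.06 in EAE-vehicle microglia, and microglial markers in astrocytes lie higher in every EAE-vehicle library than in the naive ones.

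Changes limited to microglia comprised 28 rises and 10 falls, 38 in all, which became 18 without EAE-vehicle microglia 6 and 57 without EAE-vehicle astrocyte 1. Serpina3g, an intracellular serpin, read 0.27, 0.00, 0.00 and 0.00 in naive and 6.75 to 7.75 (median 7.42) in EAE-vehicle microglia, and 2.32, 0.00, 0.00 and 0.00 and 0.00 to 4.41 (median 1.51) in astrocytes. Its changes were 7.29 ± 0.42 (adjusted p = 9.5e-08) and 1.23 ± 1.10 (interaction adjusted p = 0.00455). The lipoprotein components Apoc1 and Apoc2 changed by 4.80 and 6.80 in microglia, against -0.63 and 1.96 in astrocytes, with interaction adjusted p-values of 0.00463 and 0.0257. Fn1, the matrix protein fibronectin, changed by 5.13 and 0.34 (0.00641), and Fgl2, a fibrinogen-like protein of macrophages, by 5.58 and 0.91 (0.0133). The adenosine receptor Adora1 changed by 4.12 and -1.64 (0.027), and its interaction did not pass (0.0706) with values under 3 set to 3. Monocyte and neutrophil markers averaged 1.92 to 6.73 in naive and 2.47 to 6.81 in EAE-vehicle microglia, so these groups overlapped, and Ccr2, which marks incoming monocytes, lacked signal in every naive microglial library. The sort for CD45int and CX3CR1+ cells is meant to leave out CD45-high monocytes and neutrophils. Their part in the rises was not tested.

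The falls limited to microglia included 3 homeostatic genes. P2ry12 (chr3:59216272-59262871), the receptor that guides microglial processes to ADP, read 12.87, 12.87, 12.02 and 13.12 in naive and 8.01 to 9.28 (median 8.34) in EAE-vehicle microglia. In astrocytes it read 0.00, 2.54, 0.04 and 3.08 and 0.20 to 3.68 (median 2.72), which overlapped. The microglial change was -4.16 ± 0.39 (adjusted p = 1.46e-05), the astrocytic difference 1.07 ± 0.86, and the interaction adjusted p 0.00641. Gpr34, a receptor for lysophosphatidylserine, changed by -4.14 ± 0.63 (0.00386), against 1.48 in astrocytes, and Tmem119 by -2.40 ± 0.34 (0.032). Jun, the partner of Fos, changed by -4.50 ± 0.62 (0.0255), and the protease gene Klk8 by -2.78 ± 0.46 (0.00963). Tmem176b and Csmd3 changed by -3.08 and -3.50 (0.00359 and 0.0337). Naive astrocytes read 0.00 to 2.74 for Gpr34, 0.08 to 0.36 for Klk8, 0.00 to 1.07 for Csmd3 and 1.14 to 3.55 for Jun. Tmem176b read 5.07 to 8.08 there. Where a gene was near the floor in naive astrocytes, a fall in astrocytes could not be seen. The interactions of Adora1, Apoc2, Csmd3 and Jun passed the threshold narrowly and were lost without any 1 of 8, 6, 11 and 6 of the 20 libraries, with adjusted p-values of up to 0.0573 (without naive microglia 1), 0.059 (without naive microglia 2), 0.0879 (without naive microglia 3) and 0.071 (without naive microglia 2).

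Changes limited to astrocytes comprised 15 rises and 16 falls, 31 in all, which became 21 without naive astrocyte 3 and 52 without EAE-vehicle astrocyte 4. Nupr1 (chr7:126623249-126630861), a small nuclear protein induced by stress, read 0.00, 0.50, 0.22 and 0.28 in naive and 6.16 to 7.66 (median 6.80) in EAE-vehicle astrocytes, where the groups were apart, against 7.79, 8.14, 6.54 and 9.08 and 7.35 to 8.24 (median 7.54) in microglia. It changed by 6.56 ± 0.78 (adjusted p = 0.000479) in astrocytes and by -0.25 ± 0.43 (adjusted p = 0.845) in microglia, and the interaction was -6.81 ± 0.54 (adjusted p = 1.42e-06). The other 5 genes with the largest rises are genes of white blood cells. Lcp1, an actin bundler of haematopoietic cells, read 0.12, 0.00, 0.60 and 0.00 in naive and 1.00 to 6.45 (median 5.68) in EAE-vehicle astrocytes, against 8.42, 8.68, 8.10 and 7.46 and 7.27 to 8.00 (median 7.63) in microglia. Coro1a, which binds actin in the same cells, changed by 5.01 ± 1.27 in astrocytes and -0.39 ± 0.47 in microglia, and the cytokine gene Ltb by 5.09 ± 0.93 and -1.24 ± 0.71. The lymphocyte surface gene Cd48 changed by 4.62 and -0.15, and Bcl2a1b, a survival factor, by 4.08 and -0.28. The 5 interaction adjusted p-values were between 0.00212 (Ltb) and 0.0297 (Bcl2a1b), and that of Bcl2a1b was lost without any 1 of 10 libraries, reaching 0.0694 without naive microglia 4. With values under 3 set to 3 the interactions of Cd48 (0.118) and Bcl2a1b (0.181) did not pass. The microglial difference of Lcp1 was -0.54, and it was called a fall in 5 of 28 alternative settings.

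T cell markers were also higher in EAE-vehicle than in naive astrocyte libraries. The mean over 9 T cell markers was 0.60 to 1.29 in naive and 1.44 to 5.82 in EAE-vehicle astrocytes, and Cd3d and Lck lacked signal in every naive astrocyte library. Monocyte and neutrophil markers averaged 0.07 to 1.01 and 1.58 to 4.85, with Ly6g without signal in all of these libraries. EAE-vehicle astrocyte library 4 was lowest for both marker means and also held the lowest EAE-vehicle values of Lcp1, at 1.00, and Coro1a, at 2.05. The sort for CD11b-CD45- cells is meant to leave out T cells, monocytes and neutrophils, which carry CD45. How far it did so was not measured. The part of RNA from such cells in the astrocytic rises was not tested. All 15 genes whose rise was limited to astrocytes were higher in naive microglia than in naive astrocytes by more than 2 log2 units.

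The falls limited to astrocytes were of genes held at moderate levels in both cell types. Tlr3, a sensor of double-stranded RNA, read 5.06, 4.27, 5.34 and 4.81 in naive and 0.00 to 2.48 (median 1.03) in EAE-vehicle astrocytes, against 4.78, 5.09, 4.42 and 0.64 and 4.00 to 5.03 (median 4.42) in microglia, and changed by -3.87 ± 0.90 (adjusted p = 0.0781) and 0.75 ± 0.73. Mmp14, a membrane-bound matrix protease, changed by -3.51 ± 0.69 and 0.71 ± 0.57, and Atp2a2, the calcium pump of the endoplasmic reticulum, by -3.54 ± 0.74 and 0.19 ± 0.36. Gpr180, Tmem241 and Arl8a, a small GTPase of lysosome transport, changed by -3.98, -4.07 and -3.68 in astrocytes. Interaction adjusted p-values ran from 0.0141 to 0.0449 (Arl8a). Arl8a and Atp2a2 lost theirs without any 1 of 17 and of 8 libraries, reaching 0.093 without naive astrocyte 3 and 0.0813 without naive microglia 2, and Tlr3 lost its own without naive astrocyte 3 (0.0578). With values under 3 set to 3 that of Tmem241 did not pass (0.118). The lower astrocyte marker mean of EAE-vehicle astrocytes stands beside these falls too, and its part was not tested.

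The classes differed in where their genes started, given here as a description, since the naive mean also enters each change. Genes shared higher were on median 0.56 log2 units higher in naive microglia than in naive astrocytes and genes shared lower were at -0.04, beside 0.29 over all 8509 genes. Opposed genes that rose in microglia started lower there by a median of 2.03 units (-2.03), and opposed genes that fell in microglia started higher there by a median of 6.51. Of the latter, 61 of 70 (87.1%) were more than 2 units higher in naive microglia, against 14.9% of all 8509 genes. Genes whose rise was limited to microglia stood at -2.53, those whose fall was limited to microglia at 5.68, and those whose rise was limited to astrocytes at 7.34. In each opposed or limited class apart from falls limited to astrocytes, at -1.07 with 3 of 16 more than 2 units higher in naive astrocytes, the median gene thus began at least 2 units higher in the cell type where it fell or was not called higher. A group mean under 1, where the floor sets the difference, was present for 42 of the 70, for 10 of the 15 rises limited to astrocytes and for 112 of the 312 genes shared higher. It was also present for 5 of the 10 falls and 12 of the 28 rises limited to microglia and for 4 of the 16 falls limited to astrocytes. Of the 47 opposed genes that rose in microglia it was present for 13, and of the 145 shared lower for 35.

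**Figure D5:**
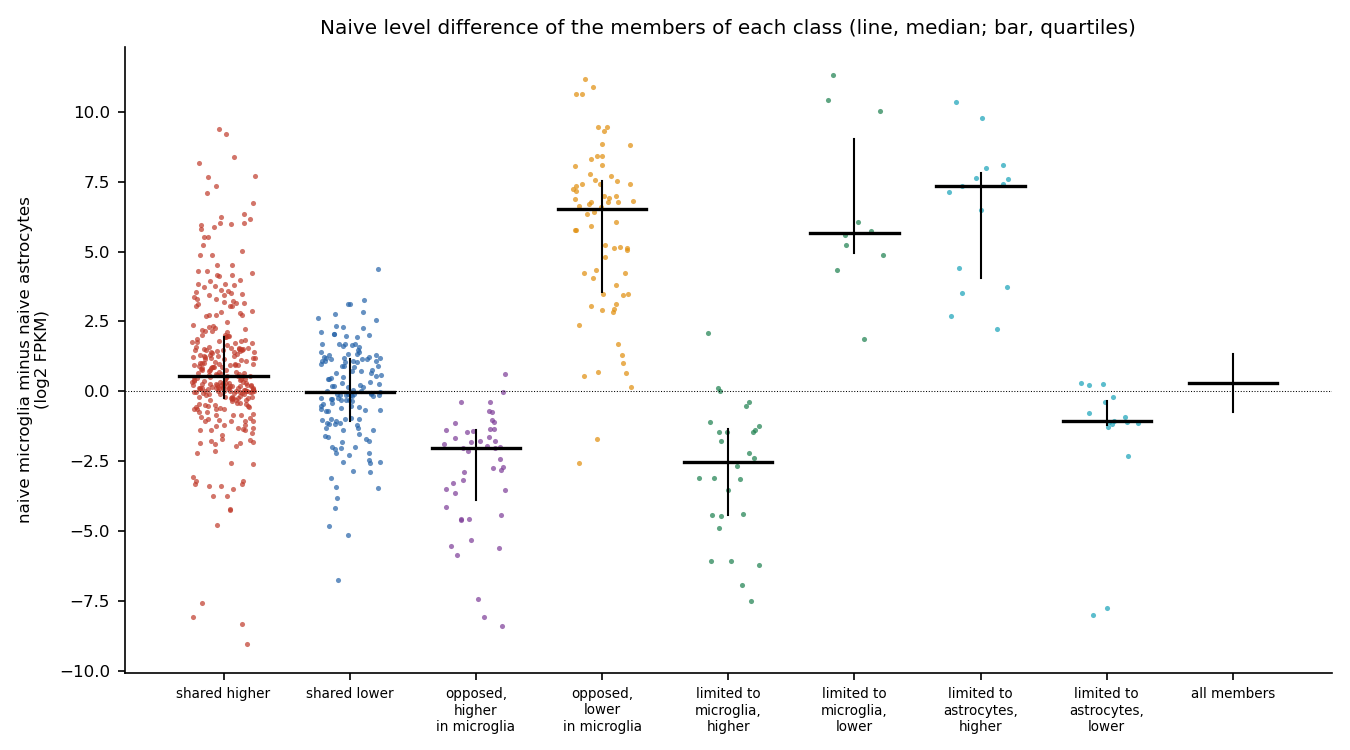
Each point is a gene, placed by the mean of naive microglia minus that of naive astrocytes (log2 FPKM, 4 libraries each), with a line at the median of its class and a bar between its quartiles. Shared classes centre near 0 (medians 0.56 and -0.04), whereas genes that fell in microglia and rose in astrocytes centre at 6.51.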

How the data were processed

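RNA was measured in 30 libraries, and the values the authors deposited are log2 FPKM (log2 of a length-scaled expression level) per gene, made with OmicSoft Array Studio, which per the study's methods also did quality control, alignment and normalization. The sorted values of all 30 libraries are identical, from 0 to 15.34, so the deposited log2 values were quantile-normalized, genes without signal hold values that rise with table order, and no depth, interval or fold over a true zero can be given. The aligner, annotation release and offset are not given in the sources used here. Gene positions are those of the table, and 52 of 52 named genes have the same start and end in GENCODE for GRCm38. Promoters are from RefSeq (GRCm38.p6).

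The values were fitted with limma 3.58.1 in R 4.3.3 (eBayes with trend), in 1 fit of the 15 libraries of each cell type and, for the interaction, 1 fit of the 20 naive and EAE-vehicle libraries, with Benjamini-Hochberg adjustment over all genes tested. The study names a paired test, but 4 naive and 6 EAE mice have no stated pairing, so the fits are unpaired. Per the study, each library of a cell type is from 1 mouse. The named genes are protein-coding: the 8 shared genes in each direction and the 6 opposed genes of each pattern with the largest smaller change of the 2 cell types, and the 6 limited genes per cell type and direction with the largest change. From each list, genes with the largest change in either cell type were named. Members and lists were chosen with earlier results of these data known. The steps were tested on simulated data. Python 3.11.15 was used for motif searches. Alternatives changed the centring, offset, floor, level limit, annotation, variance model, libraries, weights, call rule and block, and left out each library.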

Additional observations from a re-analysis of the deposited data

Results flagged for a closer look

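The EAE change differed between microglia and astrocytes by the interaction test for 36 of the 52 named genes, and each value here is the microglial minus the astrocytic change on the log2 scale. Among genes that rose in microglia and fell in astrocytes the differences were Vcam1 7.92, Pla2g7 8.23, Apoe 5.24, Axl 5.15, C1galt1c1 5.60 and Chst1 4.67. Among genes that fell in microglia and rose in astrocytes they were Hspb1 -7.61, Junb -7.40, Gimap6 -8.03, Egr1 -7.81, Btg2 -7.14 and Sgk1 -6.21. Rises limited to microglia gave Serpina3g 6.07, Apoc2 4.84, Fgl2 4.66, Fn1 4.79, Apoc1 5.43 and Adora1 5.76, and falls limited to microglia gave Jun -5.50, P2ry12 -5.23, Gpr34 -5.62, Csmd3 -4.09, Tmem176b -3.85 and Klk8 -4.10. Rises limited to astrocytes gave Nupr1 -6.81, Ltb -6.33, Coro1a -5.41, Lcp1 -5.45, Cd48 -4.77 and Bcl2a1b -4.36, and falls limited to astrocytes gave Tmem241 4.09, Gpr180 4.54, Tlr3 4.61, Arl8a 4.23, Atp2a2 3.73 and Mmp14 4.22.

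In 32 of 208 groups of the named genes the highest or lowest library stood far from the rest, where chance gives about 1 in 20. Naive astrocyte library 2 stood high for Iigp1 (2.00), Cd74 (3.19), Tgtp2 (3.85), Sncaip (4.14), Junb (3.34), Fgl2 (2.32), Ltb (0.01) and Coro1a (2.23), and low for Tmc7 (3.11) and Tmem176b (5.07). Naive astrocyte library 1 stood high for Gbp6 (0.88), Gm4951 (0.58), Serpina3g (2.32) and Cd48 (0.07), and library 4 for Egr1 (1.12). EAE-vehicle astrocyte library 4 stood high for Gpr155 (3.74), Sncaip (0.94), Apoe (12.10) and Tmem176b (8.62) and low for Coro1a (2.05) and Lcp1 (1.00). Single flags in EAE-vehicle astrocytes fell on library 5 for Tmc7 (2.26), library 6 for Tmem241 (2.88), library 3 for Gpr180 (3.85) and library 1 for Mmp14 (3.33). In naive microglia, library 2 stood apart for Hnmt (4.6) and Btg2 (9.58), library 1 for Serpina3g (0.27) and library 4 for Tlr3 (0.64). In EAE-vehicle microglia, library 5 stood apart for Rab34 (2.17) and library 4 for Junb (1.5) and Nupr1 (8.24). Several of these are values at the floor of the scale.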

How the results depend on the processing

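The counts over the 8509 genes (2440 called in microglia, 1339 in astrocytes, 145 interactions, 312 shared higher, 145 shared lower, 117 opposed, 38 limited to microglia, 31 limited to astrocytes) moved as follows, and the causes were not tested beyond what each setting removes. With values under 3 set to 3 there were 392 interactions, 67 opposed and 196 and 107 limited genes. The difference of the S1pr1 changes then turned to 1.74 and passed as an interaction. The interactions of H2-Ab1 and Cd74 did not pass in the main fit but passed in 2 and 1 of 28 alternative settings. Counting all genes tested gave 2032 calls in astrocytes, 256 interactions and 93 and 82 limited genes. A level limit of 3 gave 1182 and 651 calls, 72 interactions, 72 shared lower, 48 opposed and 18 and 11 limited genes. Genes whose levels in the 2 cell types were within 2 units gave 59 interactions, 51 opposed and 18 and 14 limited genes. Protein-coding genes not marked as confounded gave 1072 and 620 calls, 66 interactions, 152 and 65 shared, 54 opposed and 11 and 17 limited genes. Library quality weights gave 2088 calls in astrocytes, 364 interactions and 89 and 119 limited genes. An adjusted p under 0.05 in each cell type gave 878 and 137 calls, 63 and 9 shared, 7 opposed and 72 and 20 limited genes.

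Deviations of same-numbered libraries were little correlated (r from -0.149 to 0.137, with at most 1 pair per comparison above 0.1). The spread of single libraries can hide a shared mouse, so this does not show that they came from different mice. With the replicate number as a block there were 53 interactions and 6 and 8 limited genes. Under that block the interactions of Chst1, Apoc2, Fgl2, Fn1, Adora1, Jun, Csmd3, Klk8, Lcp1, Cd48, Bcl2a1b, Tmem241, Gpr180, Tlr3, Arl8a, Atp2a2 and Mmp14 and the astrocytic calls of Rab34 and Axl did not pass. With all 30 libraries in the fit of the interaction those of Klk8, Coro1a, Bcl2a1b, Tlr3 and Arl8a did not pass, nor did those of Apoc2, Arl8a and Atp2a2 without both EAE-vehicle libraries numbered 1. Leaving out each library gave 2212 to 2530 calls in microglia, 1065 to 1378 in astrocytes, 104 to 202 interactions, 266 to 338 shared higher, 108 to 152 shared lower, 96 to 131 opposed, 18 (without EAE-vehicle microglia 6) to 57 (without EAE-vehicle astrocyte 1) limited to microglia and 21 (without naive astrocyte 3) to 52 (without EAE-vehicle astrocyte 4) limited to astrocytes. The depth is unknown, and the floor of the scale limits every change from or to a group without signal.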

Other observations

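Over the 8509 genes, 16% rose and 12.6% fell in microglia and 7.8% rose and 7.93% fell in astrocytes, and the list counts are read against these shares. Genes of cell division rose in both cell types in part: of 23 cell cycle and DNA replication genes, 13 rose in microglia, 9 in astrocytes and 5 in both, with medians of 1.44 and 1.26. Ube2c, a ubiquitin carrier of mitotic exit, was 4.04 ± 0.93 in microglia and 1.86 ± 0.98 in astrocytes, where it was not called, and Ccnb2, a mitotic cyclin, changed by 3.60 ± 0.63 and 1.80 ± 0.68. Of 41 translation factors 18 rose in microglia, 7 in astrocytes and 5 in both. Eif3k changed by 2.33 ± 0.80 and 1.94 ± 0.43. The disease-associated microglia list was split: of 14 genes 8 rose and 4 (Trem2, Lpl, Ctsd and Cd9) fell in microglia, and 5 rose and 2 (Apoe and Axl) fell in astrocytes. Spp1, the secreted osteopontin, rose in both with the larger change in astrocytes (1.59 and 5.64, interaction adjusted p = 0.0159), and Cst7 changed by 5.06 and 2.87. The microglial markers in EAE-vehicle astrocytes given in the report stand beside these astrocytic values, and their part was not tested. Of 21 cathepsin and lysosome genes 4 rose and 3 fell in microglia, and 1 rose and 3 fell in astrocytes, which is near those shares, with Lipa, the lysosomal acid lipase, at 0.53 ± 0.41 and -2.38 ± 0.89. Of 10 metallothionein and iron genes 5 rose in microglia, and 4 rose and 3 fell in astrocytes, with Hmox1, which degrades haem, at 0.32 ± 0.38 and 3.01 ± 1.28. Of 5 astrocyte transport genes, the glutamate transporter Slc1a3 was one of 2 that fell in astrocytes (-1.94 ± 0.38).

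Libraries from EAE-RIPK1inh-1 mice enter no comparison of the 2 cell types, and their means are set beside the others as values, with the naive libraries shared by both EAE groups. The mean of Apoe was 11.18 in naive, 14.11 in EAE-vehicle and 14.30 in EAE-RIPK1inh-1 microglia, and 13.92, 11.62 and 12.48 in astrocytes. Pla2g7 averaged 2.09, 7.77 and 6.68 in microglia and 10.47, 7.92 and 9.10 in astrocytes. For Junb the means were 7.71, 4.22 and 5.59, and 1.08, 4.98 and 4.45. Gbp2 stood at 1.49, 9.56 and 9.07 in microglia and 0.42, 8.33 and 7.31 in astrocytes. Lcp1 in astrocytes averaged 0.18, 5.09 and 4.24.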
